A study of Mus musculus with 17 samples.

Results

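The genes of the EGF receptor family were followed in cultured mouse astrocytes treated with an agonist of sonic hedgehog (SHH) signaling or with fibroblast growth factors. The group was chosen by gene symbol and holds 10 of the 56691 gene rows of the count table. These are the receptors *Egfr*, *Erbb2*, *Erbb3* and *Erbb4*, the inhibitors *Lrig1* and *Errfi1*, the *Lrig1* relatives *Lrig2* and *Lrig3*, and the ligands *Hbegf* and *Tgfa*. The choice was made with earlier results of these libraries in view, so their values are a description of where these genes stand among all genes. All 10 symbols were found, each on a single row.

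Astrocytes were purified by immunopanning from the brains of C57BL/6 mouse pups, after removal of the meninges, olfactory bulbs and cerebellum. In immunopanning, a cell suspension passes over dishes coated with antibodies. Here CD45 and O4 dishes removed microglia, macrophages and oligodendrocyte precursors, and a HepaCAM dish kept the astrocytes. In the SHH experiment, 3 cultures received SAG at 500 ng/ml and 3 received its solvent DMSO, from day 3 in vitro for 3 days. SAG activates Smoothened, the membrane protein that passes on the SHH signal. In the FGF experiment, 4 cultures received FGF2 and 3 received FGF10, each at 50 ng/ml, and 4 received PBS, from day 2 in vitro for 7 days. The 17 libraries were primed at the poly(A) tail and hold 3′ ends, so a longer transcript does not give more counts. The serum-free medium of every culture, controls included, contained HB-EGF, the protein that *Hbegf* encodes, so no library comes from cells without added EGF receptor ligand. The study describes the libraries as biological replicates and as sample pools, and the number of animals behind each is not given in the sources used here. The cells came from all remaining brain regions together, not from the septum alone.

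The EGF receptor (EGFR, also ErbB1) and ErbB2, ErbB3 and ErbB4 are membrane tyrosine kinases that pair up when a ligand binds and then start the RAS to ERK and PI3K to AKT cascades. HB-EGF and TGFα bind EGFR, and HB-EGF also binds ErbB4, whereas neuregulins bind ErbB3 and ErbB4. ErbB2 has no ligand of its own, and ErbB3 has a weak kinase and signals through its partners. LRIG1 is a membrane protein that promotes the degradation of ErbB receptors, and ERRFI1 (also MIG6) is a cytoplasmic protein that binds the EGFR kinase and blocks it. In the brain, EGFR marks glial and neural progenitors and immature astrocytes.

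Total counts ran from 17481727 to 68342287 per library, with a median of 37173676. Levels are given as CPM, the count of a gene scaled to the size of its library, with TMM factors over the 17 libraries. Sampling was uneven among weakly expressed genes: among genes whose level elsewhere was 5 to 10 CPM, 7.58% to 33.9% had no count in a given library. The summed level of 10 astrocyte markers was between 3429 and 5456 CPM, and each marker had counts in every group. Of 9 markers of microglia or macrophages, 5 to 8 were at 0 in each group or set of libraries, and their summed level was at most 19.3 CPM. Markers of the oligodendrocyte lineage remained at 139 to 662 CPM in sum and ependymal markers at 78.6 to 514 CPM. In these bulk samples, fewer cells of a type and less RNA per cell cannot be told apart. In the FGF experiment, the libraries numbered 3 and 4 stood apart from those numbered 1 and 2 in summed astrocyte, oligodendrocyte lineage, neuronal and ependymal markers. The values of these libraries are given separately below.

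The SAG treatment was checked with *Ptch1*, the SHH receptor and a direct target of the pathway. Its level was 469 ± 11.7 CPM in SAG and 84.0 ± 18.0 CPM in DMSO libraries (SD, n = 3 each), or 2.50 on the log2 scale (SE 0.22, adjusted p = 0.00173, edgeR). *Gli1*, the transcription factor induced by the pathway, had no count in the 3 DMSO libraries and 210 to 1333 counts in the SAG libraries.

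**Figure D1:**
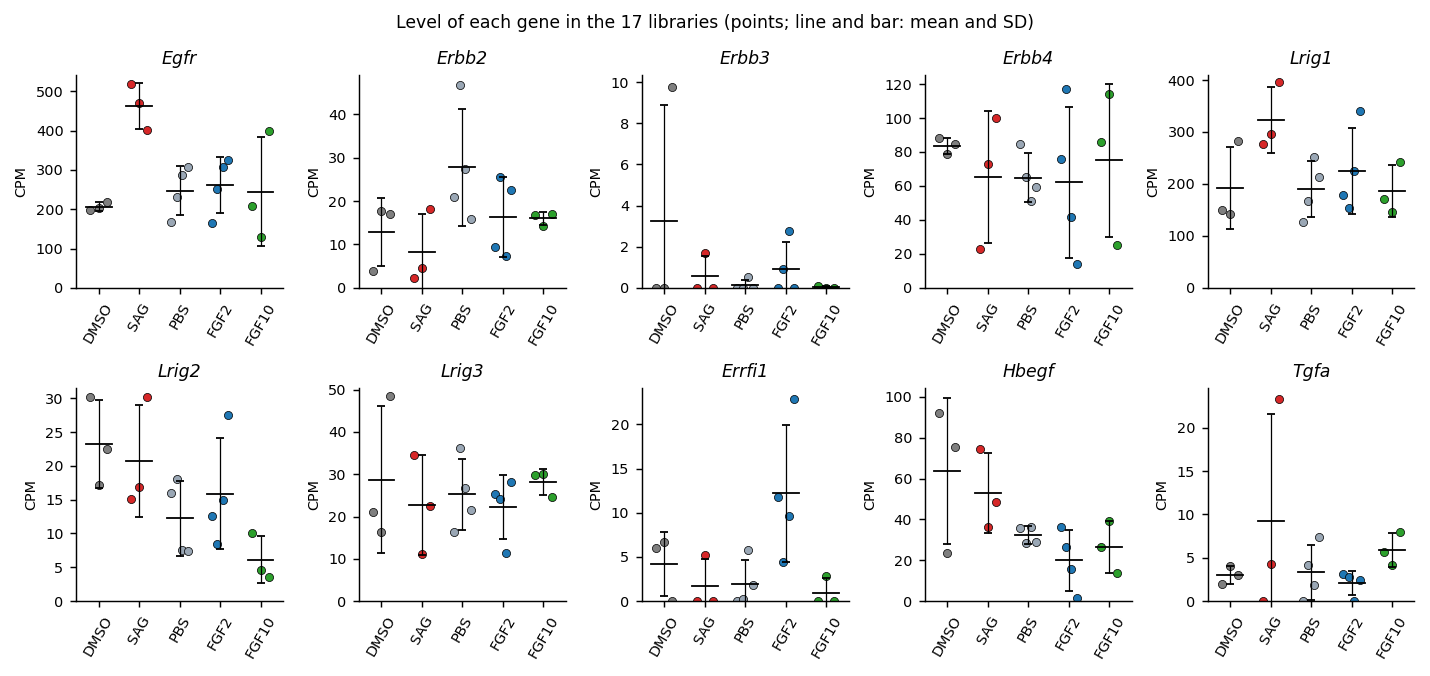
Level in CPM (vertical axes, each from 0) of the 10 genes in DMSO, SAG, PBS, FGF2 and FGF10 libraries (1 point per library, in order of replicate number; line and bar, mean and SD, cut at 0). The 3 SAG libraries lay between 402 and 518 CPM for *Egfr*, above each DMSO, PBS, FGF2 and FGF10 library, while for the other genes each treated group overlaps its control.

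*Egfr* was the 1 of 9 members tested whose SAG and DMSO libraries did not overlap, as was so for 14.1% of the genes tested, and its difference stood just outside the edgeR threshold. It lies on chr11:16752203-16913907 on the plus strand (GRCm38.p6, RefSeq). Its level was 197, 202 and 219 CPM in the DMSO libraries and 518, 469.8 and 402 CPM in the SAG libraries. Every SAG library was above every DMSO library. The means were 463 ± 58.5 and 206 ± 11.4 CPM (SD, n = 3 each), 2.28-fold higher with SAG, or 1.19 on the log2 scale (SE 0.19). The unadjusted p of edgeR's quasi-likelihood test was 4.24e-05, which placed *Egfr* at rank 9 of 12538 genes. Its adjusted p was 0.0591, against a threshold of 0.05. The 2-sided exact permutation test gave p = 0.1, the smallest that 3 against 3 libraries allow.

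The adjusted p of *Egfr* moved more with the setting than its fold change did. Over 6 other settings, the log2(fold-change) stayed between 1.17 and 1.20 while the adjusted p ran from 1.62e-10 to 0.314, and 3 of the 6 passed the threshold. These were DESeq2's Wald test (1.62e-10), edgeR without a filter on low counts (4.44e-04) and edgeR on genes with at least 10 counts on average (0.00203). With 1 library left out at a time, the log2(fold-change) was between 1.10 and 1.28 and the adjusted p between 0.128 and 0.365.

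**Figure D2:**
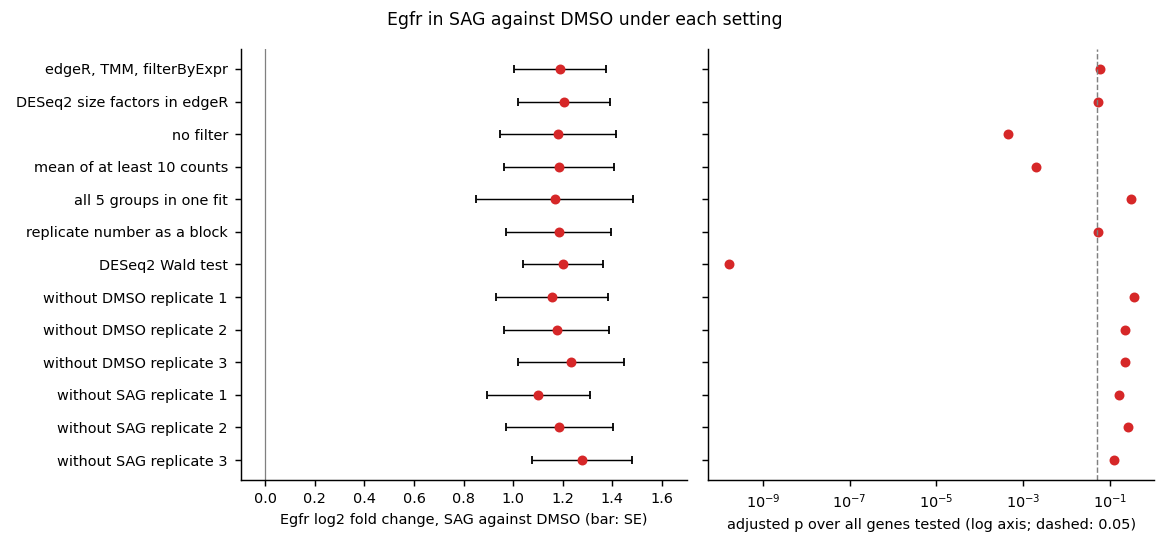
*Egfr* in SAG against DMSO under 13 settings (rows): log2 fold change with its SE (left) and adjusted p over all genes tested (right, log axis, dashed line at 0.05). The fold change stays between 1.10 and 1.28, and 3 settings fall below the dashed line.

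Under the edgeR threshold, 0 of the 9 members tested passed in SAG against DMSO, where 8 of 12538 genes (0.0638%) did. At an unadjusted p under 0.05 there were 2 members, *Egfr* and *Lrig1*, and 714 genes. By DESeq2, *Egfr* was the 1 member called, with 398 of 13210 genes (3.01%). *Erbb3* had too few counts and was not tested.

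*Lrig1* leaned the same way as *Egfr*, with overlap between the groups. It lies on chr6:94604529-94700298 on the minus strand. The DMSO libraries had 150.5, 143 and 284 CPM and the SAG libraries 276, 297 and 396 CPM. DMSO replicate 3 lay inside the range of the SAG libraries. The SAG mean was 323 ± 64.4 CPM and the DMSO mean 192 ± 79.1 CPM (SD, n = 3 for either), or 0.77 on the log2 scale (SE 0.29, adjusted p = 0.680, edgeR). Exons of *Lrig1* overlap those of *Slc25a26* on the opposite strand, which had at most 31.1 CPM. The strand setting of the counting is not given in the sources used here, so reads of that overlap cannot be assigned between these genes.

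The upstream sequences of these 2 genes are shown because they were the members with the lowest p under SAG and because GLI factors, the transcription factors that carry the SHH signal, bind DNA. Each runs 5′ to 3′ on the gene's strand up to the outermost annotated start (RefSeq, GRCm38.p6), and capitals mark CG dinucleotides. The *Egfr* stretch is chr11:16751953-16752202 (plus strand) and the *Lrig1* stretch is chr6:94700299-94700395 (minus strand).
Egfr: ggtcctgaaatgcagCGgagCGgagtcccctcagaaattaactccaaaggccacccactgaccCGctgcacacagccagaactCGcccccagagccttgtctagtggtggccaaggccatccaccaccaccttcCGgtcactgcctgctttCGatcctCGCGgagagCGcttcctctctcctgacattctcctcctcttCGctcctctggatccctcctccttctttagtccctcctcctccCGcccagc
Lrig1: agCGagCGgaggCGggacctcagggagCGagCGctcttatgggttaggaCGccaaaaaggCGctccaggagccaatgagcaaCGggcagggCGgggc
The *Egfr* stretch has 11 CG dinucleotides in 250 bases and the *Lrig1* stretch 9 in 97 bases, with GC shares of 60.8% and 67.0%. Over 32851 windows of 250 bases upstream of mouse genes, the median GC share was 52.4%. The *Lrig1* window of this kind is chr6:94700146-94700395, with 26 CG dinucleotides and a GC share of 71.6%. This window, and not the shorter stretch shown, was searched for motifs. Windows were found for 8 of the 10 members (9 windows). The GLI site GACCACCCA, searched on both strands, was in 0.225% of all windows and in none of the members' windows. The AP-1 site TGANTCA was in 6.75% of all windows and likewise in none of theirs. The cyclic AMP element TGACGTCA was in 1.55% of all windows and, among members, in a window of *Errfi1*, 43 bases before the start. At 0.225% of all windows, a GLI site was unlikely to be found in 9 windows in any case. A motif that is not in such a window says nothing about sites elsewhere or about sites that differ from these letters.

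None of the other 7 members tested passed between SAG and DMSO, with adjusted p = 1.00 for each (edgeR). *Erbb4*, the receptor for neuregulins and HB-EGF, had 88.1, 78.7 and 84.6 CPM in DMSO and 23.0, 73.2 and 99.8 CPM in SAG libraries, a log2(fold-change) of -0.33 (SE 0.46). The SAG libraries lay on either side of the narrow DMSO range. *Erbb2* had 3.85 to 17.7 CPM in DMSO and 2.34 to 18.2 CPM in SAG libraries, a log2(fold-change) of -0.59 (SE 1.45). *Lrig2* and *Lrig3*, the relatives of *Lrig1* whose part in ErbB turnover is less well settled, were at 3.63 to 30.2 CPM and 11.1 to 48.6 CPM over the 17 libraries. Their log2(fold-change) values with SAG were -0.14 (SE 0.74) and -0.31 (SE 0.73). *Hbegf* was among the more variable members, with 92.4, 23.5 and 75.2 CPM in DMSO and 74.7, 36.2 and 48.4 CPM in SAG libraries (log2(fold-change) -0.24, SE 0.50). *Tgfa* had 1.94 to 4.10 CPM in DMSO libraries and 0, 4.30 and 23.3 CPM in SAG libraries, so its log2(fold-change) of 1.63 (SE 2.37) rested on SAG replicate 3. *Errfi1* was at 0 in 1 of 3 DMSO and 2 of 3 SAG libraries.

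**Figure D3:**
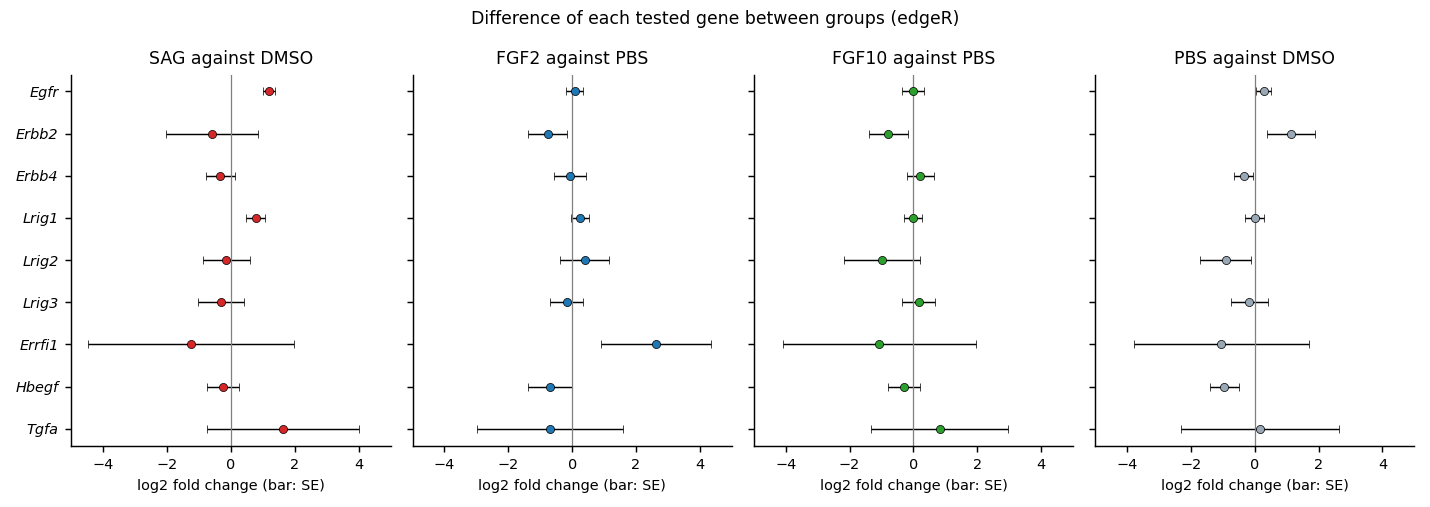
Log2 fold change (horizontal axes) of the 9 members tested in each of 4 comparisons, by edgeR (point, estimate; bar, SE). *Egfr* in SAG against DMSO lies at 1.19 with an SE of 0.19, while the bars of *Errfi1* and *Tgfa* span several log2 units.

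Marker levels moved alongside in this comparison. The summed oligodendrocyte lineage markers were 147 to 177 CPM in SAG and 242 to 345 CPM in DMSO libraries, the summed ependymal markers 92.1 to 139 CPM and 189 to 270 CPM, and the summed endothelial or mural markers 0 to 13.8 CPM and 22.3 to 24.0 CPM. None of these pairs of ranges overlaps, as was so for 14.1% of single genes tested, and 0 of 8, 0 of 3 and 0 of 1 genes tested passed the threshold. The astrocyte, neuronal, microglial and fibroblast sums overlapped. In DMSO libraries *Foxj1* alone was at 143 to 233 CPM and *Pdgfrb* at 19.1 to 23.7 CPM. The ependymal and the endothelial or mural sums thus rest largely on 1 gene each. Of the oligodendrocyte lineage genes tested, 7 were negative and 1 positive with SAG, from *Gpr17* (-3.50, SE 2.06) to *Cspg4* (1.35, SE 2.20). The transcription factor gene *Olig2*, also of this lineage, was not in the list. Its mean was 1840 CPM in SAG and 1154 CPM in DMSO libraries. The summed astrocyte markers were 3653 to 4290 CPM with SAG and 4152 to 4508 CPM with DMSO. Of these genes 5 were positive and 5 negative with SAG, the highest being *S100b* (1.77, SE 3.19). *Aldh1l1*, a folate enzyme of astrocytes, had a log2(fold-change) of 0.80 (SE 0.24, adjusted p = 0.484, edgeR). *Gfap*, the filament protein of mature and reactive astrocytes, was the lowest and had a log2(fold-change) of -2.08 (SE 0.35, adjusted p = 0.0854, edgeR). Of the neuronal, microglial and fibroblast lists, 6, 1 and 1 genes were tested and 0 passed. With FGF2, with FGF10 and between PBS and DMSO, 0 genes of the 7 marker lists passed. The part of these levels in the *Egfr* difference was not tested.

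FGF2 and FGF10 were added for longer than SAG, and no member passed the test with either factor. Against PBS, 0 of 9 members passed with FGF2, where 0 of 12744 genes did (0.0%), and 0 of 9 passed with FGF10, where 0 of 13309 genes did (0.0%). At an unadjusted p under 0.05 there were 0 members in each, with 223 and 305 genes, and DESeq2 called 120 and 104 genes and 0 members. No member had groups without overlap, against 2.44% and 4.8% of the genes tested. The comparisons share their PBS libraries.

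*Egfr* illustrates this. Its level was 167, 231, 286 and 306 CPM in the PBS libraries, 165, 251, 308 and 324 CPM in the FGF2 libraries and 208, 129 and 399 CPM in the FGF10 libraries. The range of each group overlaps that of the others. The log2(fold-change) was 0.08 (SE 0.26) with FGF2 and -0.01 (SE 0.34) with FGF10. Taken within replicates 1 and 2 and within replicates 3 and 4, the FGF2 value was 0.069 (SE 0.29) and 0.085 (SE 0.20). *Lrig1* had a log2(fold-change) of 0.24 (SE 0.29) with FGF2 and -0.02 (SE 0.28) with FGF10, and *Erbb4* of -0.07 (SE 0.49) and 0.21 (SE 0.42). *Erbb2* was lower in mean with each factor, at 16.2 ± 9.22 CPM with FGF2 (n = 4) and 16.0 ± 1.46 CPM with FGF10 (n = 3) against 27.8 ± 13.5 CPM with PBS (SD, n = 4), with log2(fold-change) values of -0.77 (SE 0.61) and -0.79 (SE 0.61). Reads at its 3′ end are uncertain because exons of *Erbb2* overlap those of *Mien1* on the opposite strand, which had 32.4 to 83.1 CPM.

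*Errfi1*, which is induced by growth factor signaling and then restrains EGFR, had the largest positive value among the members with FGF2. Its level was 11.7, 4.45, 9.66 and 22.9 CPM in the FGF2 libraries and 0, 0.254, 5.84 and 1.86 CPM in the PBS libraries. The lowest FGF2 library lay below the highest PBS library. The means were 12.2 ± 7.78 and 1.99 ± 2.70 CPM (SD, n = 4 each), or 2.62 on the log2 scale (SE 1.73, adjusted p = 1.00, edgeR; exact permutation p = 0.0571, 2-sided). With FGF10 it had 0.0385, 2.82 and 0 CPM. It passed under no setting tried. *Hbegf* had 36.5, 26.4, 16.0 and 1.52 CPM with FGF2 and 28.7 to 36.3 CPM with PBS, a log2(fold-change) of -0.70 (SE 0.70). FGF2 replicate 4 was the library with the lowest *Hbegf* and *Erbb4* and the highest *Errfi1* of the experiment. With FGF2 and FGF10, the log2(fold-change) of *Tgfa* was -0.69 (SE 2.28) and 0.82 (SE 2.14), and that of *Lrig2* 0.39 (SE 0.76) and -0.99 (SE 1.19). That of *Lrig3* was -0.18 (SE 0.52) and 0.16 (SE 0.51). With FGF10, *Hbegf* was at -0.29 (SE 0.50) and *Errfi1* at -1.07 (SE 3.03).

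The control cultures of the 2 experiments were set side by side to describe the base levels. Solvent, day of addition and time in culture differ together between them and cannot be told apart. In PBS against DMSO, 0 of 9 members and 0 of 13271 genes (0.0%) passed in edgeR, with 0 members and 580 genes at an unadjusted p under 0.05 and 193 genes and 0 members called by DESeq2. No member had groups without overlap, against 6.41% of the genes. *Hbegf* came nearest, at 32.4 ± 4.23 CPM in PBS (n = 4) and 63.7 ± 35.8 CPM in DMSO libraries (SD, n = 3), a log2(fold-change) of -0.95 (SE 0.45, adjusted p = 1.00, edgeR). DMSO replicate 2, with 23.5 CPM, was below all PBS libraries.

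Ordered by their means over the 5 groups, the members had 40 pairs of neighboring groups. The ranges were apart in the 1 pair formed by *Egfr* in SAG and FGF2, and overlapped in the other 39. Over all genes tested, 1.48% of such pairs were apart. Groups further from each other in the order could still be apart. Across the experiments, which differ in solvent and time, *Lrig1* was apart in SAG (276 to 396 CPM) and PBS (127 to 252 CPM). *Lrig2* was apart in DMSO (17.2 to 30.1 CPM) and FGF10 (3.63 to 10.1 CPM). Within the FGF experiment, *Errfi1* was apart in FGF2 (4.45 to 22.9 CPM) and FGF10 (0 to 2.82 CPM). So was *Tgfa*, in FGF10 (4.12 to 7.96 CPM) and FGF2 (0 to 3.08 CPM). Such pairs were not counted over all genes, so these are examples only. *Erbb3*, the neuregulin receptor that depends on its partners, was at 0 in 11 of 17 libraries and reached 9.76 CPM in DMSO replicate 3, 2.77 CPM in FGF2 replicate 3 and 1.71 CPM in SAG replicate 2. In DMSO replicate 3, the oligodendrocyte lineage genes *Sox10*, *Gpr17* and *Pdgfra* were at 71.7, 48.4 and 31.2 CPM, and the summed list, 242 CPM, was the lowest of the 3 DMSO libraries. The link between these levels and *Erbb3* was not tested.

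The replicate number in the labels went with the level of 3 members in the FGF experiment more closely than the treatment did. The 5 libraries numbered 3 or 4 were compared with the 6 numbered 1 or 2, with the treatment as a covariate, a comparison added after the data were seen. No label says what the numbers share, so whether they mark a preparation, a culture or a run is not known. In this fit, 586 of 14553 genes (4.03%) and 3 of 10 members passed, and the ranges were apart for the same 3 members and for 4.8% of the genes.

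*Egfr* was at 286 to 399 CPM in the libraries numbered 3 or 4 and at 129 to 251 CPM in those numbered 1 or 2. The means were 325 ± 43.6 (n = 5) and 192 ± 46.0 CPM (SD, n = 6), a log2(fold-change) of 0.77 (SE 0.17, adjusted p = 0.00908, edgeR), or 1.71-fold. *Lrig1* was at 213 to 340 CPM and at 127 to 179.5 CPM, a log2(fold-change) of 0.70 (SE 0.16, adjusted p = 0.0112, edgeR). *Erbb4* went the other way. It was at 13.8 to 59.1 CPM in the libraries numbered 3 or 4 and at 65.3 to 117 CPM in the others, a log2(fold-change) of -1.32 (SE 0.33, adjusted p = 0.0236, edgeR). This *Erbb4* value was -0.43 (SE 0.46) within PBS, where the libraries had 84.5 and 65.3 against 50.9 and 59.1 CPM, and -1.84 (SE 0.52) within FGF2, and it was not past the threshold in either. The call of *Egfr* was lost without FGF10 replicate 3 (adjusted p = 0.118), and that of *Lrig1* without FGF2 replicate 4 (0.0612), both by edgeR. That of *Erbb4* was lost without FGF2 replicate 2, FGF2 replicate 4 or FGF10 replicate 3, with an adjusted p of up to 0.126 by edgeR.

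**Figure D4:**
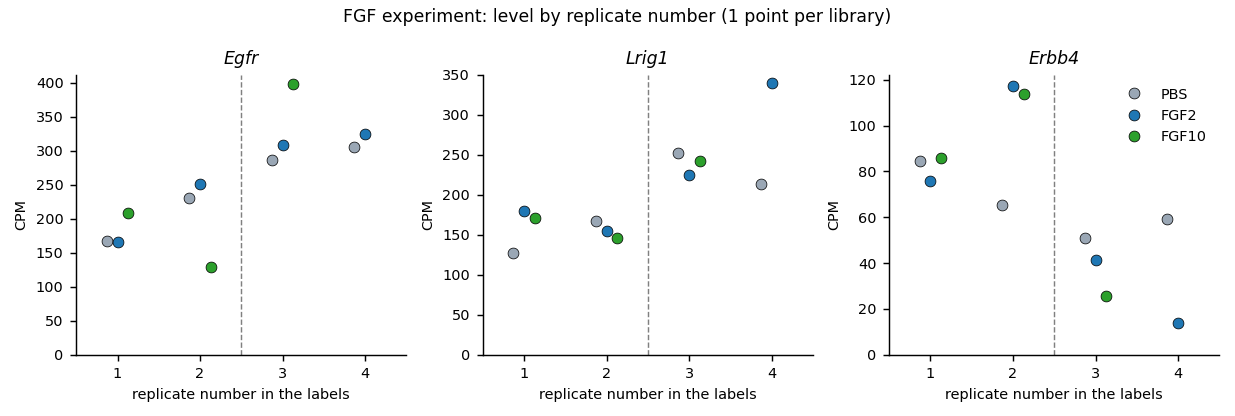
Level in CPM (vertical axes, from 0) of *Egfr*, *Lrig1* and *Erbb4* by replicate number in the FGF experiment, 1 point per library, colored by treatment, with a dashed line between numbers 2 and 3. Right of the line, *Egfr* is at 286 to 399 CPM and *Erbb4* at 13.8 to 59.1 CPM, and left of it at 129 to 251 CPM and 65.3 to 117 CPM.

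The remaining 7 members overlapped between the sets. *Hbegf* had 26.4 to 39.2 CPM in the libraries numbered 1 or 2 and 1.52 to 36.3 CPM in the others (log2(fold-change) -0.998, SE 0.57, adjusted p = 0.488, edgeR). *Erbb2*, *Lrig2* and *Lrig3* had log2(fold-change) values of -0.28 (SE 0.56), -0.31 (SE 0.92) and -0.23 (SE 0.46).

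The SHH experiment and these replicate sets have no library in common. Their values are listed side by side after both were seen, as a description only. *Egfr* and *Lrig1* were higher with SAG by 1.19 and 0.77 and in the libraries numbered 3 or 4 by 0.77 and 0.70 on the log2 scale. The latter 2 passed the edgeR threshold. The sets were compared after the data were seen, so their p-values are a description only. *Gfap* was at -2.08 with SAG (adjusted p = 0.0854, edgeR) and at -2.80 (SE 0.34, adjusted p = 1.31e-05, edgeR) in the sets. *Aldh1l1* was at 0.80 in each, past the threshold in the sets and not with SAG. Of the 10 astrocyte markers, 5 were positive and 5 negative with SAG, and 1 was positive and 9 negative in the sets. The 10 markers as a whole thus did not all share a direction. With SAG, 4 of them had an unadjusted p under 0.05 (edgeR), and these kept their sign in the sets. Beside *Gfap* and *Aldh1l1* they were *Sox9* (-0.52 with SAG and -0.68 in the sets) and *Gja1* (-0.97 and -1.19). *Erbb4* was at -0.33 with SAG, where its groups overlapped, and at -1.32 in the sets. Whether the differences in the 2 experiments have a common source was not tested.

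Cell type markers moved with the sets as well. The summed astrocyte markers were 3429 to 3891 CPM in the libraries numbered 3 or 4 and 4628 to 5456 CPM in those numbered 1 or 2, with 4 of 10 genes lower and 1 higher, *Aldh1l1*, by the edgeR threshold. Summed neuronal markers were 27.1 to 47.3 CPM and 129 to 179 CPM (2 of 7 genes tested were lower), ependymal markers 78.6 to 204 CPM and 316 to 514 CPM (2 of 3 lower), and oligodendrocyte lineage markers 139 to 369.7 CPM and 452 to 662 CPM. None of these pairs of ranges overlaps. Endothelial or mural markers were at most 9.36 CPM in the libraries numbered 3 or 4 and 14.4 to 64.7 CPM in the others (*Pdgfrb* was lower, 1 of 2 tested), and fibroblast markers overlapped (0 of 3 called). Of the microglial list, 1 gene was tested and 0 passed. Their part in the levels of *Egfr*, *Lrig1* and *Erbb4* was not tested.

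**Figure D5:**
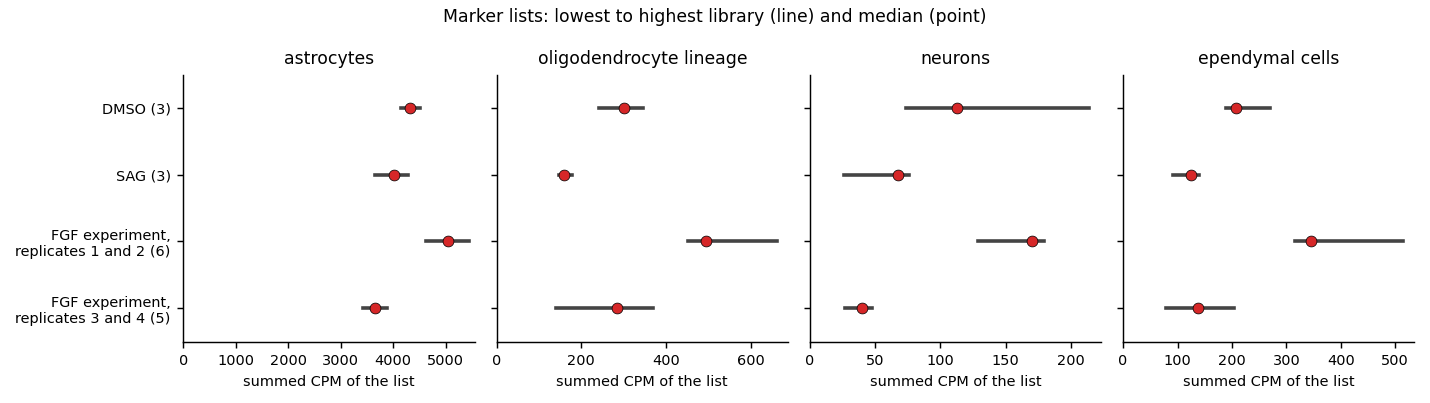
Summed CPM (horizontal axes, from 0) of 4 marker lists in DMSO, SAG and the 2 replicate sets of the FGF experiment (number of libraries in parentheses; line, lowest to highest library; point, median). Oligodendrocyte lineage and ependymal sums are lower in SAG than in DMSO, and all 4 sums are lower in replicates 3 and 4 than in 1 and 2.

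Other EGF-like ligands were low and uneven between libraries. *Egf*, *Areg*, *Ereg*, *Btc* and *Epgn* together reached at most 10.5 CPM in any library, and 2 of the 5 had no count anywhere. The sum of the neuregulins *Nrg1* to *Nrg4* was at most 32.8 CPM in any library, and *Nrg1* and *Nrg2* alone had enough counts to be tested. *Nrg2* had a log2(fold-change) of 3.45 (SE 3.24) with SAG, 0.43 (SE 1.27) with FGF2 and -3.75 (SE 2.42) with FGF10. *Nrg1*, whose symbol stands on 2 rows of which 1 had no counts, had a log2(fold-change) of 1.83 (SE 2.94) with SAG. It had no count in the 4 PBS libraries and 4.78, 12.8 and 3.84 CPM in the FGF10 libraries, so the groups did not overlap, with adjusted p = 1.00 (edgeR). *Nrg2* was apart in the other direction, at 4.26 to 7.94 CPM in PBS and 0.0771 to 0.886 CPM in FGF10 libraries. Of all genes tested, 4.8% were apart in this comparison. Neither list had a gene past the threshold in any comparison.

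The genes that release ligands and carry the signal had counts in every group, except *Rhbdf2* at 0 in DMSO, SAG and FGF2, and those tested did not pass the threshold with SAG, FGF2 or FGF10, nor between PBS and DMSO. With SAG, of the sheddases and their cofactors, which cut ligands from the membrane, 1 of 5 tested was positive and 4 negative, with a median log2(fold-change) of -0.32 against -0.02 over all genes. The extremes were *Rhbdf1* (0.69, SE 0.48), a partner of the sheddase ADAM17, and *Adam12* (-1.78, SE 1.74). Of 10 genes of receptor turnover, 3 were positive and 7 negative (median -0.26), from *Socs4* (1.39, SE 0.53) to the endocytic adaptor *Eps15* (-1.48, SE 1.01). Of 7 adaptors, 4 were positive (median 0.25), from *Shc1* (1.62, SE 1.64) to *Ptpn11* (-0.53, SE 0.42). Of 10 genes of the RAS to ERK cascade, 6 were positive (median 0.48), from *Hras* (1.05, SE 0.77) to *Araf* (-1.03, SE 0.34). Of 9 genes of the PI3K to AKT cascade, 2 were positive (median -0.25), from *Mtor* (0.19, SE 0.63) to *Pik3cb* (-3.80, SE 2.83).

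With FGF2, the list medians lay between -0.07 and 0.20 and with FGF10 between -0.11 and 0.21, leaving out the ligand lists. The kinase *Araf* was the lowest of its list in each, at -0.67 (SE 0.31) with FGF2 and -0.95 (SE 0.31, adjusted p = 1.00, edgeR) with FGF10, and *Hras* the highest, at 1.03 (SE 0.70) and 0.81 (SE 0.81). Between the replicate sets, 1 gene of the pathway lists passed. *Sos1*, which loads RAS with GTP once receptors recruit GRB2, was lower in the libraries numbered 3 or 4, with a log2(fold-change) of -1.30 (SE 0.34, adjusted p = 0.0318, edgeR). The sheddase *Adam9* was at 1.70 (SE 0.53, adjusted p = 0.0845) and *Pik3r1*, the regulatory subunit of PI3K, at 0.68 (SE 0.20, adjusted p = 0.0617), neither past the threshold of the edgeR test.

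To describe which genes followed the same course as a member, the log2 CPM of each gene was centred on its mean over the 17 libraries, and the root-mean-square difference from the member was taken over 9070 genes with a mean of at least 10 CPM. The genes nearest to *Egfr* were *Olig2* (0.30), *Npm1* (0.32) and *Klf13* (0.34), where the standard deviation of *Egfr* itself was 0.55. *Olig2*, a transcription factor of glial progenitors and of the oligodendrocyte lineage, had a mean of 1840.2 CPM in SAG, 1154 CPM in DMSO, 1279 CPM in PBS, 1492 CPM in FGF2 and 1088 CPM in FGF10 libraries. Nearest to *Lrig1* (standard deviation 0.47) were *Rpl10* (0.25) and *Eif4b* (0.27), which encode parts of the translation machinery, and *Atxn10* (0.29). For *Erbb2* (standard deviation 1.08) the nearest were *Tns1* (0.69), *9130401M01Rik* (0.70) and *Gpr19* (0.70). For *Errfi1* (standard deviation 3.32) they were *Car8* (2.17), *Elmod2* (2.35) and *Supv3l1* (2.37), distances that say little given how often *Errfi1* was at 0. These are descriptions over libraries that share groups and replicate sets.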

How the data were processed

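RNA was measured in 17 libraries of immunopanned mouse astrocytes in 5 groups, taken from the sample labels; the columns of the SAG libraries carry the name of the pathway. The authors built 3′-end libraries with BC1 transcripts removed and PCR cycles set per library, used STAR for alignment and gene counting, and tested with DESeq2. Per the labels, the submitters' processing notes name the build GRCm38. The authors deposited raw whole-number counts per gene without normalization. The annotation, strand setting and any use of molecular identifiers are not given in the sources used here, so PCR copies could be counted many times. Of the 56805 rows, 114 were spike-in sequences (at most 86 counts per library) and were left out. No pair of replicates was a duplicate (chi-square per degree of freedom of 151.6 to 532.5 over 21 pairs). The methods give 3 FGF2 replicates and the labels 4, and all 4 were used.

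The members, the gene lists and the tests were chosen with earlier results of these data known. The tools were edgeR 4.0.16 (quasi-likelihood test, with no covariate except the treatment in the comparison of replicate sets), DESeq2 1.42.0 and R 4.3.3. Each fit held the libraries of its own groups, with TMM scaling, after filterByExpr (minimum count 10, minimum total 15). P-values were adjusted over all genes tested by the Benjamini-Hochberg method, with a threshold of 0.05. The standard error was taken from the F statistic. The methods speak of biological replicates and of sample pools without giving the animals in each, so p-values measure the spread between these samples. The biological coefficient of variation was 106.6% to 116.9% over the 4 comparisons. Intervals on counts were not used because reads are not independent molecules.

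The text names every member, the genes of the pathway lists past the threshold or at either extreme, the 3 genes most like *Egfr*, *Erbb2*, *Lrig1* and *Errfi1* on log2 CPM (prior count 2), and *Ptch1* and *Gli1*. Marker genes beyond this rule were chosen after their values were seen. Alternatives were DESeq2's size factors, other filters, all groups in one fit, the replicate number as a block, replicate sets, each library left out, DESeq2's Wald test and the authors' threshold (adjusted p under 0.01, absolute log2(fold-change) above 1). That threshold was applied to the edgeR fits unless DESeq2 is named. The fits were run on simulated counts with known changes, as a check of the calculation. No statement on how small a change these libraries could show is drawn from it. Upstream windows and coordinates come from RefSeq GRCm38.p6 and overlaps from GENCODE. No window was used for *Erbb3* or *Hbegf*.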

Additional observations from a re-analysis of the deposited data

Results flagged for a closer look

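*Erbb3* in the PBS group was set apart by a library far from the others. PBS replicate 3 had 0.510 CPM (18 counts) and the other 3 PBS libraries had none. With 3 libraries at 0, any count in the fourth would be set apart in this way, so the rate of about 1 in 20 groups that chance gives for continuous values does not apply here.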

How the results depend on the processing

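No call of a member changed with FGF2, FGF10 or between PBS and DMSO under any alternative tried. With SAG, 8 genes were called and 0 members. Without a filter these were 76 genes and 1 member, with genes of at least 10 counts on average 42 and 1, and by DESeq2's Wald test 398 and 1, the member being *Egfr* each time. All 5 groups in one fit gave 4 genes, the authors' threshold on the edgeR fit 4, and leaving out 1 library gave 1 to 7. The authors' threshold on DESeq2's Wald test gave 167 genes. *Egfr* was within it, with a log2(fold-change) of 1.20 and an adjusted p of 1.62e-10 by that test. DESeq2 called 120 genes with FGF2, 104 with FGF10 and 193 between PBS and DMSO, where edgeR without a filter called 36, with a mean of 10 counts 4 and with all groups in one fit 1. The cause of these differences in counts was not tested. Between the replicate sets, edgeR called 586 genes and 3 members. Fewer libraries entered within PBS (171 genes, 0 members) and within FGF2 (251 genes, 0 members). The authors' threshold on the edgeR fit gave 193 genes and 0 members. Leaving out 1 library gave 1 to 3 members, with 1 without FGF2 replicate 4 or FGF10 replicate 3.

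The labels tie no replicate number to an animal or day, and the deviations of same-numbered libraries correlated with r between -0.016 and 0.109 over the comparisons. Between FGF2 and PBS all 4 values were positive, from 0.09 to 0.109. With the replicate number as a block, SAG against DMSO had 12 genes called in place of 8 and *Egfr* an adjusted p of 0.0542 (edgeR), and the block changed no call of a member. It turned the sign of 6 log2(fold-change) values, none of them called: *Tgfa* was at -0.39 with SAG and -1.89 in PBS against DMSO, *Lrig1* at -0.047 in PBS against DMSO and 0.067 with FGF10, *Erbb4* at -0.047 and *Errfi1* at 1.56 with FGF10.

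Other signs that turned also belonged to values without a call. In replicates 1 and 2 alone, *Erbb4* was at 0.37, *Lrig2* at -0.68 and *Tgfa* at 0.49 with FGF2, and *Lrig1* at 0.11, *Errfi1* at 3.46 and *Hbegf* at 0.022 with FGF10. With the replicate set as a term, FGF10 had *Egfr* at 0.037, *Erbb4* at -0.14, *Lrig1* at 0.094 and *Errfi1* at 1.86. *Lrig1* in PBS against DMSO was at -0.0072 with DESeq2's size factors, -0.0036 without a filter, -8.42e-05 with a mean of 10 counts, -0.013 with all groups in one fit and -0.0067 by DESeq2. Between the sets, *Lrig2* was at 0.99 within FGF2 and *Hbegf* at 0.027 within PBS. With 1 library left out, SAG against DMSO gave -0.78 to 0.067 for *Erbb4*, -0.53 to 0.077 for *Lrig2*, -0.75 to 0.30 for *Lrig3*, -0.64 to 0.12 for *Hbegf* and -0.47 to 2.20 for *Tgfa*. FGF2 gave -0.069 to 0.25 for *Egfr*, -0.58 to 0.26 for *Erbb4*, -0.033 to 0.41 for *Lrig1*, -0.024 to 0.63 for *Lrig2*, -0.34 to 0.045 for *Lrig3* and -1.10 to 0.052 for *Tgfa*. FGF10 gave -0.56 to 0.27 for *Egfr*, -0.24 to 0.62 for *Erbb4*, -0.26 to 0.13 for *Lrig1*, -0.017 to 0.38 for *Lrig3* and -0.71 to 0.015 for *Hbegf*. PBS against DMSO gave -0.18 to 0.39 for *Lrig1*, -0.45 to 0.45 for *Lrig3* and -0.59 to 0.58 for *Tgfa*, and the sets -0.33 to 0.65 for *Tgfa*. *Erbb3*, *Errfi1* and *Tgfa* had no count in some libraries, and the part of depth in this was not tested.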

Other observations

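The spread of a member within a group was uneven. The coefficient of variation of *Egfr* was 5.54% in DMSO, 12.6% in SAG, 25.2% in PBS, 27.4% in FGF2 and 56.7% in FGF10 libraries, and that of *Erbb4* was 5.63% in DMSO and 59.7% in SAG libraries. The FGF10 group holds 2 libraries numbered 1 or 2 and 1 numbered 3, which had the highest *Egfr* (399 CPM) and the lowest *Erbb4* (25.5 CPM) of the group.

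Transcripts annotated inside the members' introns also had reads. Within *Erbb4*, the unclassified transcript *Gm37735* reached 32.2 CPM in a library, and within *Lrig2*, *Gm43696* and *A530041M06Rik* reached 19.0 CPM each, on the same strand as their hosts. These levels are set beside a highest *Lrig2* level of 30.2 CPM. Whether such reads were primed inside unspliced transcripts of the host genes was not tested.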
